A study of Mus musculus with 8 samples.

Results

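Of 44026 Runx1-bound regions called in both replicates in EML_C1 cells, 1021 (2.32%) lay in chromatin carrying trimethylated lysine 27 of histone H3 (H3K27me3) and touched no Ezh2 peak of either replicate. These regions, called members below, were chosen by the measured peak calls. Peaks of the 2 replicates of an antibody were merged, merged regions with a peak of both replicates were kept, and a Runx1 region was taken when it shared at least 1 bp with an H3K27me3 region and 0 bp with any Ezh2 peak. H3K27me3 had 110650 such regions. They held 2880 Runx1 regions, of which the 1021 without an Ezh2 peak made up 35.5% and the 1859 with one made up the remainder. Without Runx1 replicate 1 or 2, the rule found 2043 or 2800 regions, and with a mark q-value of at most 0.01 it found 26. The folds, q-values and peak overlaps of these regions for the 3 antibodies therefore describe the choice and carry no test. Position in genes and promoter sequence were not used directly. They are not independent of the choice, since leaving out regions with Ezh2 can also leave out gene ends and CpG-rich promoters.

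EML_C1 is a mouse haematopoietic progenitor line, labelled as of strain C57BL/6 at passage 4-5, and was grown with stem cell factor and no other stated treatment. Chromatin immunoprecipitation and sequencing was done with antibodies to Ezh2, H3K27me3 and Runx1, with 2 replicates each, and 2 input libraries are not analysed here. For Ezh2 and Runx1, DSG, a protein-to-protein crosslinker, came before formaldehyde for 60 min, whereas cells for H3K27me3 got formaldehyde only, for 10 min. All values come from 1 line, and the labels do not say that replicates were separate cultures, so the spread between replicates may be technical.

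Runx1 is the DNA-binding subunit of core-binding factor. It is needed for blood stem cells to form and acts later in lymphoid and megakaryocytic differentiation, activating some genes and repressing others. Ezh2 is the catalytic subunit of Polycomb repressive complex 2 (PRC2), which places methyl groups on lysine 27 of histone H3. H3K27me3 spreads over broad domains around silent genes, many of them regulators of other lineages, and PRC2 itself is usually found at focal sites within such domains, often at CpG-rich promoters.

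The promoters below are 5 of the 42 that such Runx1 regions touched, and they are not a representative sample. Ttc38, with Runx1 folds of 14.4 and 15.0 and no RUNX core, is among those not shown. Each runs 5′ to 3′ on the strand of the gene, from 250 bases before to 50 bases after a start, and comes from RefSeq (GRCm38.p6, whose coordinates are those of mm10). Capitals mark the RUNX core, TGTGGT or TGCGGT, on either strand. Fam221a was printed by the rule for named regions, and the other 4 were chosen after their values were seen.
Fam221a, chr6:49367489-49367788, + strand: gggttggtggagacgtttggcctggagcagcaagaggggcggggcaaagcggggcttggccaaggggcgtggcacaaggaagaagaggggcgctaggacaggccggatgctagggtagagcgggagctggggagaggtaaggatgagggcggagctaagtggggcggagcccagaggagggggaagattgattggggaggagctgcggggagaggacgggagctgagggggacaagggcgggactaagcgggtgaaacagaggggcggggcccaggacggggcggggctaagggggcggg
Plekhg2, chr7:28372613-28372912, - strand: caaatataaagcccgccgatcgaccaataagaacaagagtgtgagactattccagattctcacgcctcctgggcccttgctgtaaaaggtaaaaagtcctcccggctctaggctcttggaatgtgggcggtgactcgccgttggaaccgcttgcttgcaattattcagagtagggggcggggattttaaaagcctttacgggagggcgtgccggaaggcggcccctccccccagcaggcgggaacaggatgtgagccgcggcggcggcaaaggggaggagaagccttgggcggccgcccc
Asb2, chr12:103338341-103338640, - strand: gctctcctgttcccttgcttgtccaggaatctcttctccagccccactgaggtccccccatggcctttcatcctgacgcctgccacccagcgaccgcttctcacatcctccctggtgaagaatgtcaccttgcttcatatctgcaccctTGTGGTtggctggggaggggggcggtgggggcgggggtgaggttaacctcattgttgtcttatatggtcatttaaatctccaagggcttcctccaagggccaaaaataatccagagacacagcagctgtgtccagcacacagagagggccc
Slc29a4, chr5:142701851-142702150, + strand: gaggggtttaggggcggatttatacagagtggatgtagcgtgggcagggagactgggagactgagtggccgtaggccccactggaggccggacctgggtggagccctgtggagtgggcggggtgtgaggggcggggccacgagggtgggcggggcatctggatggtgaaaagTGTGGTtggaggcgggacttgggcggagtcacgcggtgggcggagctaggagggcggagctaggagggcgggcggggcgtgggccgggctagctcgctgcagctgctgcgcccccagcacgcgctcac
Prf1, chr10:61297586-61297885, + strand: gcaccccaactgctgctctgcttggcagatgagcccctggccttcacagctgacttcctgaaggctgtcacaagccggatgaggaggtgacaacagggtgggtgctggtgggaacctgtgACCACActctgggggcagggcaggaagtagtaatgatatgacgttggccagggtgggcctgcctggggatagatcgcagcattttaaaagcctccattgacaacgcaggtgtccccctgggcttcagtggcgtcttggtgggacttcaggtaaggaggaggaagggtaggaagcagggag

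The Fam221a and Plekhg2 promoters had the highest Runx1 folds of the 5 and hold no RUNX core in these 300 bases. The fold at Fam221a was 36.0 in replicate 1 and 30.4 in replicate 2, and that at Plekhg2, a guanine nucleotide exchange factor, was 28.8 and 25.5. The Plekhg2 region shared only 45 bp with the mark and was touched by a peak of H3K27me3 replicate 1 alone. The Plekhg2 promoter printed here lies wholly outside the mark. At Fam221a and Plekhg2 no touching H3K27me3 peak had a q-value of at most 0.01. In both promoters the peak summits, the points of highest signal, lay within 52 bases before the start. At Asb2, which encodes a substrate-binding subunit of a ubiquitin ligase, the core starts at -101 from the transcription start and the summits lay at -76 and -72. The fold there was 15.4 in replicate 1 and 19.7 in replicate 2. At Slc29a4, a monoamine transporter, the core starts at -78, with summits at -104 and -98 and folds of 8.72 and 6.21. At Prf1, which encodes the pore-forming protein perforin of cytotoxic lymphocytes, the core starts at -130, with summits at -156 and -141 and folds of 4.77 and 5.87. In these last 3 promoters the core thus lay within 50 bp of both summits. Among members with both summits inside a promoter, at least 50 bp from its ends, this held for TGTGGT in 6 of 19.

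One member covered a microRNA gene, the let-7b hairpin, whose mature products are shown with the seed (bases 2 to 8) in capitals, from RefSeq. Let-7 microRNAs repress growth-promoting genes and are known for their rise during differentiation.
mmu-let-7b-5p: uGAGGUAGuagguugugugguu
mmu-let-7b-3p: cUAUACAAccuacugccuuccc
The Runx1 region chr15:85707121-85707486 contained the whole 85-bp hairpin, chr15:85707319-85707403 on the + strand. Its Runx1 fold was 7.88 in replicate 1 and 8.25 in replicate 2, its H3K27me3 fold was 1.78 and 2.03, and the nearest Ezh2 peak was 4202 bp away. Of 1005 hairpins in the table, 1 was touched by a member and 72 were touched by any Runx1 region.

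Most members were weak as Runx1 peaks, and a small number were strong. Across the 1021 regions the fold over background ran from 1.53 to 112.6 with a median of 3.48 in replicate 1, and from 1.31 to 92.3 with a median of 4.00 in replicate 2. The median over both replicates was 3.74 ± 0.369 (SD, n = 2). Marked Runx1 regions with an Ezh2 peak had medians of 4.02 and 4.61, and Runx1 regions outside the mark and without an Ezh2 peak had medians of 4.29 and 5.18. The members' median was the lowest of the 3 classes in each replicate. Without Runx1 replicate 2, which adds regions called in replicate 1 alone, the median fell to 2.45.

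Their significance was lower too. A q-value of at most 1e-05 in both Runx1 replicates was reached by 433 members (42.4%), against 60.5% of all Runx1 regions and 56.2% of marked regions with Ezh2. Members were also narrower, with a median width of 340 bp (178 to 1402 bp) against 401 bp with Ezh2 and 429 bp outside the mark. At a Runx1 fold of 10 or more the median widths were 603 bp for members and 667.5 bp with Ezh2. A narrower region has less room to touch an Ezh2 peak, and the part of width in the choice was not tested. As a description over the 1021 regions, which share their libraries, the ranks of the folds in the replicates had a Spearman correlation of 0.795, against 0.880 over the 1859 regions with Ezh2.

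**Figure D1:**
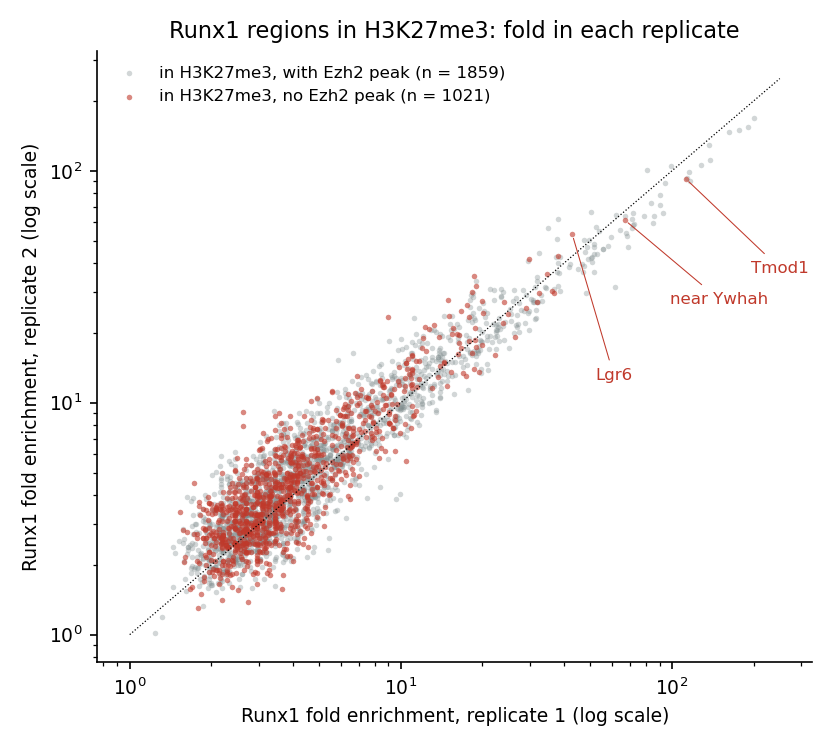
Runx1 fold enrichment in replicate 1 (horizontal, log scale) and replicate 2 (vertical, log scale) for each Runx1 region in H3K27me3, in red for the 1021 without an Ezh2 peak and in grey for the 1859 with one; the dotted line marks equal folds. The middle 50% of the red points lie between 2.69 and 5.12 in replicate 1, and the region in Tmod1 stands highest among them at 112.6 and 92.3.

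The 10 members with the highest Runx1 fold, from 27.2 upward in each replicate, included 1 at a gene end. The strongest was in Tmod1, which encodes tropomodulin, a cap of actin filaments in the red cell membrane skeleton. There the fold was 112.6 in replicate 1 and 92.3 in replicate 2. The next was 12.8 kb from Ywhah, a 14-3-3 protein, with folds of 67.1 and 61.3. The third was inside Lgr6, a receptor for R-spondins of the Wnt pathway, with folds of 42.9 and 53.3. In each of these 3 regions both replicates lay far above the members' median.

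Below them came regions 60.2 kb from Lrig1, a feedback inhibitor of growth factor receptors (37.9 and 42.9), and inside the dipeptidase gene Dpep1 (29.6 and 41.9). Cttn, which encodes the actin-binding protein cortactin, held a region with folds of 34.6 and 35.8. A region 3.47 kb from Poll, a DNA repair polymerase, had folds of 36.7 and 29.7. The Fam221a promoter ranked next. The last of the 10 were a region 18.1 kb from Fos, an AP-1 transcription factor, with folds of 32.5 and 29.6, and one 146.5 kb from Setbp1 with 31.8 and 27.2. Of these 10 regions 5 were centred inside a gene, and 7 shared their H3K27me3 region with an Ezh2 peak elsewhere. A peak of H3K27me3 replicate 1 touched all 10, and a peak of replicate 2 touched 3.

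Where Runx1 was strong, its region tended to sit across the border of the marked stretch. Of 310 members with a Runx1 fold under 3, 71.3% lay wholly inside the H3K27me3 region and 59.0% were touched by a peak of both H3K27me3 replicates. Of 94 members with a fold of 10 or more, 45.7% lay wholly inside and 38.3% were touched by peaks of both. Marked regions with Ezh2 also lay wholly inside less often at a high fold, 59.8% against 86.3%, but peaks of both H3K27me3 replicates touched 72.1% of the strong ones and 79.6% of the weak ones. The Tmod1 region showed this placement, since the mark of replicate 1 ended under it and the replicate 2 peaks stopped short of it. The median width of members rose from 291.5 bp at a fold under 3 to 603 bp at 10 or more, and the part of width in this was not tested.

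**Figure D2:**
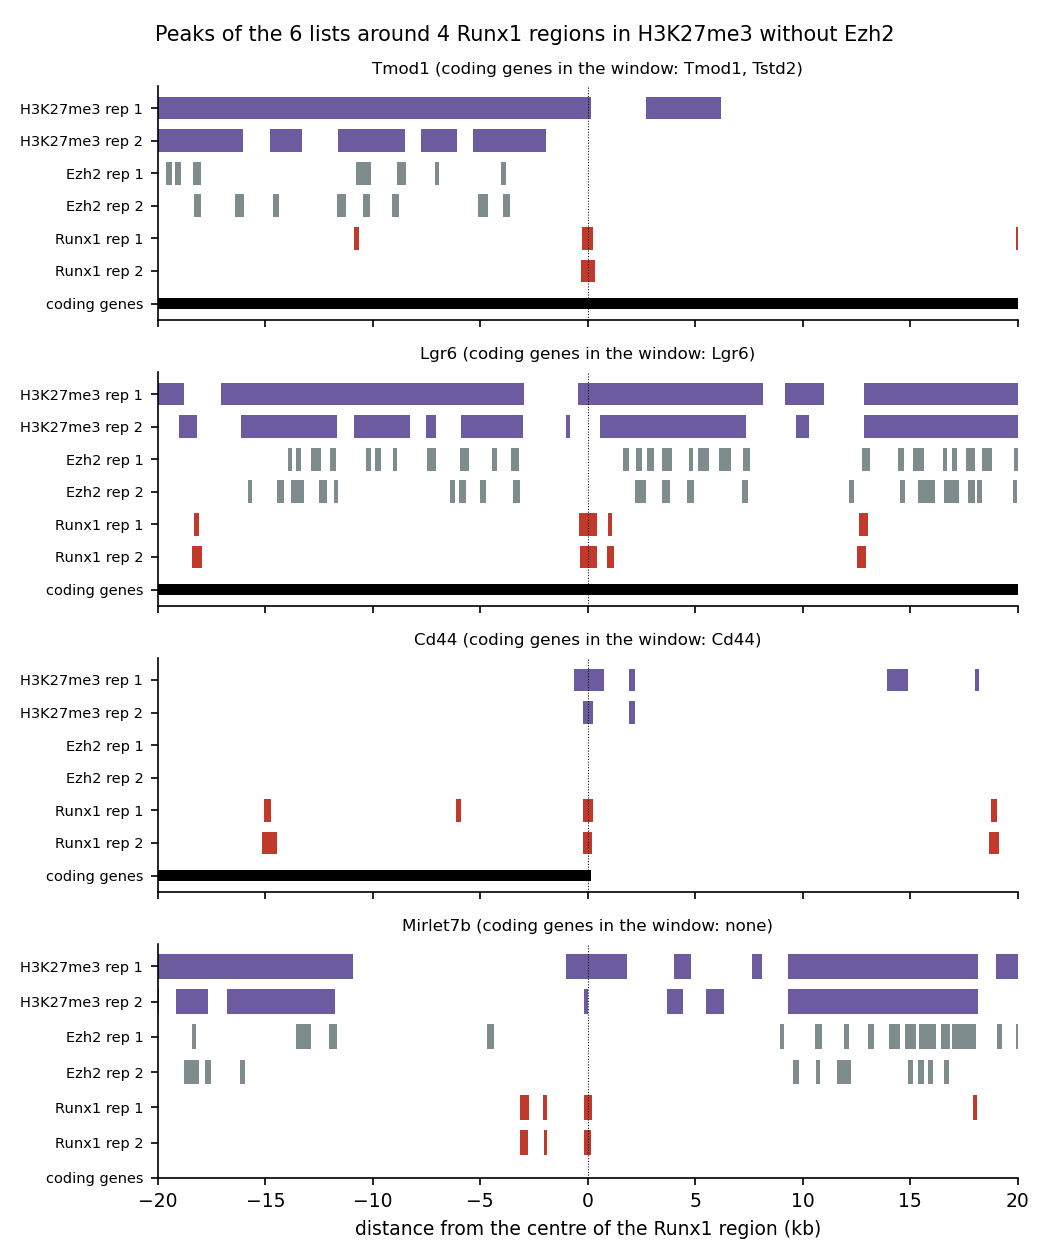
Peaks of the 6 lists within 20 kb of the centre of 4 members (horizontal axis, distance in kb; each row 1 replicate of 1 antibody; black bars, protein-coding genes; loci chosen after their values were seen). The Tmod1 and Lgr6 regions lie at the border of marked stretches with Ezh2 peaks, the Cd44 region lies in a short marked stretch with 0 Ezh2 peaks in the window, and the let-7b region lies in a marked stretch between Ezh2 peaks. No H3K27me3 peak touching the Tmod1, Cd44 or let-7b region had a q-value of at most 0.01. At Lgr6 that of replicate 1 did.

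Ezh2 was usually close by. The median distance from a member to the nearest Ezh2 peak was 964 bp, against 24.6 kb for Runx1 regions outside the mark and without Ezh2. An Ezh2 peak lay within 1 kb of 521 members (51.0%) and of 4.35% of those other regions, within 5 kb of 87.8% and 17.6%, and within 10 kb of 93.4% and 29.2%. Members lie in the mark by the rule and those other regions outside it. Of all H3K27me3 regions 59.2% held an Ezh2 peak, so these distances are not like for like and describe the choice. Against the Ezh2 list of replicate 1 alone, 40.1% of members had a peak within 1 kb, and against that of replicate 2 alone, 31.0%. The Ezh2 peak nearest to a member had a median fold of 2.35. It had a q-value of at most 0.01 for 126 members (12.3%). Of marked Runx1 regions with Ezh2, 61.9% were touched by an Ezh2 peak of that significance, and the median fold of the highest touching peak was 3.10. The nearest peak and the highest of those touching are not like measures.

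The H3K27me3 region around a member also held an Ezh2 peak elsewhere in 705 cases (69.0%), and in 316 cases it held none. Of all H3K27me3 regions, 59.2% held an Ezh2 peak. The 705 lay in regions with a median width of 6.33 kb and were a median of 576 bp from Ezh2. The 316 lay in regions of 1.63 kb and were 3.93 kb from Ezh2. The median Runx1 folds in these groups were 3.46 and 4.11 in the replicates for the 705 and 3.57 and 3.89 for the 316. Without H3K27me3 replicate 1 or 2 the share in regions holding no Ezh2 peak, 30.9% here, was 58.5% or 49.8%. The wider of the H3K27me3 regions have more room to hold an Ezh2 peak, so width and Ezh2 cannot be told apart here.

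**Figure D3:**
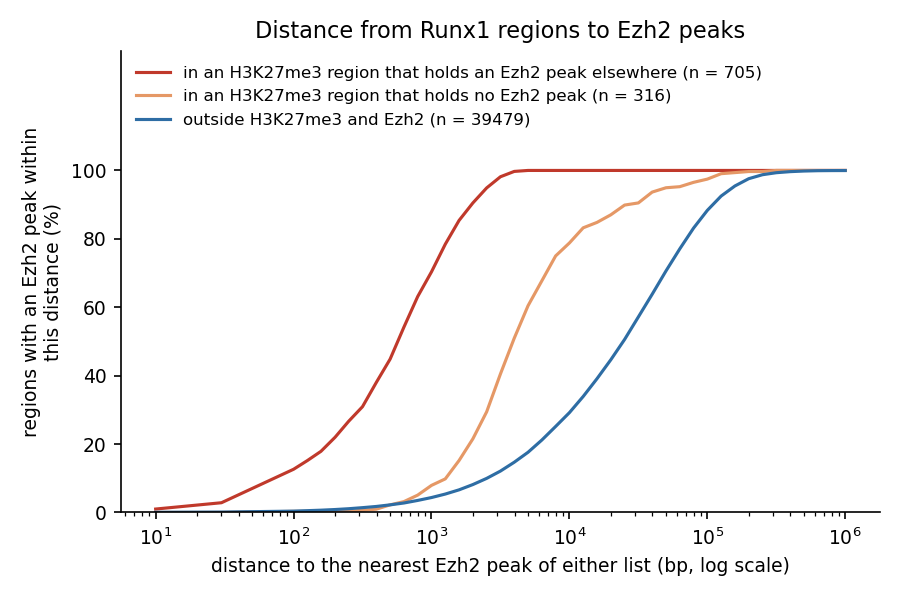
Cumulative share of Runx1 regions (vertical, %) with an Ezh2 peak of either list within a given distance (horizontal, bp, log scale), for members in an H3K27me3 region with an Ezh2 peak elsewhere (n = 705), members in one without (n = 316) and Runx1 regions outside the mark and Ezh2 (n = 39479). Within 1 kb the shares are 70.4%, 7.91% and 4.35%, and within 10 kb they are 100%, 78.8% and 29.2%. The sets were chosen by the mark and by Ezh2, so the curves describe the choice.

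Of the 5 members farthest from any Ezh2 peak, the farthest was in Tbc1d5, a GTPase-activating protein of membrane traffic, 283326 bp from Ezh2, with Runx1 folds of 3.19 and 2.03. The others were 1.98 kb from Tmem35a, inside Zmat4, inside Rimbp2 and 80.6 kb from Epha3, at 106432 to 175612 bp from Ezh2. Their H3K27me3 regions were 364 to 2508 bp wide, and their Runx1 folds were 1.87 to 4.37 in replicate 1 and 1.65 to 2.45 in replicate 2. All 5 were below the members' lower quartile of 2.89 in replicate 2, while in replicate 1 only the Rimbp2 region was below that of 2.69.

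The marked stretches around members were wider than H3K27me3 regions at large, narrower than those of marked regions with Ezh2, and modestly enriched. A wider stretch has more room to be touched by a Runx1 region, and the part of this was not tested. Their median width was 3.91 kb, from 233 to 75490 bp, against 6.29 kb for marked regions with Ezh2 and 1.65 kb for all H3K27me3 regions. Of the members 226 lay in a stretch of 10 kb or more and 108 in one under 1 kb. The median fold of the highest H3K27me3 peak touching a member was 2.22 in replicate 1 and 2.05 in replicate 2, or 2.13 ± 0.115 (SD, n = 2), against 2.33 ± 0.177 with Ezh2, with no test. In the 20 kb around a member's centre, H3K27me3 peaks covered a median of 58.1% in replicate 1 and 34.7% in replicate 2, and Ezh2 peaks covered 7.41% and 5.61%. Around marked regions with Ezh2 the mark covered 63.3% and 40.8%, and Ezh2 covered 17.3% and 14.3%.

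The mark was called less firmly at members than where Ezh2 was present. A peak of H3K27me3 replicate 1 touched 945 members, a peak of replicate 2 touched 597, and peaks of both touched 521 (51.0%). For marked regions with Ezh2 the share touched by both was 73.3%. A mark q-value of at most 0.01 in both replicates was reached at 15 members (1.47%), against 8.16% of all Runx1 regions in the mark and 11.8% of those with Ezh2. Whether an Ezh2 peak below the calling limit lay under a member was not tested.

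The 978 H3K27me3 regions that held members mostly held a single one (942 regions), with 30 regions holding 2, 5 holding 3 and 1 holding 4. The one with 4 was a stretch of 2508 bp, 80.6 kb from Epha3, an ephrin receptor, with 0 Ezh2 peaks and Runx1 folds of 2.24 to 4.29 in replicate 1. Stretches with 3 members lay inside Dlgap4, a postsynaptic scaffold gene, inside Itga9, an integrin gene, inside Atp8a2, a lipid flippase gene, and near 1600014C23Rik. The Dlgap4 stretch was 35.5 kb wide and held 25 Ezh2 peaks of replicate 1 and 19 of replicate 2, so its 3 members sat in gaps between them. The Atp8a2 stretch held 0 Ezh2 peaks. The strongest of the Itga9 members had Runx1 folds of 11.4 and 15.2.

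The widest stretch, 75490 bp in and around Igf2r, the imprinted receptor gene, held 92 Ezh2 peaks and 1 member at its border with Runx1 folds of 13.3 and 21.7. A stretch of 55405 bp over Mpzl3, Jaml and Scn2b held 99 Ezh2 peaks and 1 member, at the start of Jaml, a leukocyte adhesion molecule, with folds of 3.93 and 5.88. The other 3 of the 5 widest lay near Nkx1-1, in Mcf2l and in Nrg2, at 44114 to 51115 bp, each with 1 member.

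The members were also ranked by H3K27me3 fold, among the 521 touched by peaks of both H3K27me3 replicates. The first, 1.73 kb from Gm29721, had H3K27me3 folds of 4.73 and 2.60, and its Runx1 folds were 2.58 and 2.16. Pmfbp1, Meis3, Dusp8 and Slc14a2 held 1 of the 10 each. The highest Runx1 folds among the 10 were those in Slc14a2, a urea transporter gene (17.4 and 13.1), and Pmfbp1, a sperm gene (11.0 and 9.64). In the strictest class, 7 members had a Runx1 q of at most 1e-05 and a mark q of at most 0.01 in every replicate. One was in Meis3, a homeobox gene, with Runx1 folds of 6.58 and 5.18. Others were near Abca13, near Slc35f3, in Epha3 and, as a pair, in Elavl3, a neuronal RNA-binding protein gene.

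Members were rarely at gene ends. A gene end here is a window of 1 kb on either side of the first or last base of a protein-coding gene, because the gene table has no strand. Of the 1021 members, 49 were centred in such a window (4.80%). The share was 30.3% of marked regions with Ezh2, 21.8% of regions outside the mark without Ezh2 and 22.2% of all Runx1 regions. Over all marked Runx1 regions, with or without Ezh2, it was 21.25%. The low and high shares within the mark thus appear only once those regions are split by Ezh2, as the rule does. When each of the 6 peak lists was left out in turn, the members' share stayed between 3.92% and 7.12%, that of marked regions with Ezh2 between 17.3% and 36.4%, and that of regions outside both between 17.5% and 22.0%. The runs share most of their peak lists and each still splits the regions by Ezh2, so these ranges measure no spread between cultures. No test was made, since with 2 libraries per antibody a permutation over libraries cannot go below a two-sided p of 0.333.

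The difference held at each Runx1 strength. With a fold under 3, 3.23% of members, 31.0% of marked regions with Ezh2 and 20.1% of regions outside both were at a gene end. With a fold of 10 or more the shares were 6.38%, 46.1% and 34.2%. In the ranges between, members were at 5.36% and 5.33%. Among the transcription starts of the promoter table, 6.22% of members, 28.7% of marked regions with Ezh2 and 21.1% of regions outside both were centred near one, leaving out chromosome 18, where the table has no entry. Median distances to the nearest start were 17.1, 9.56 and 12.6 kb.

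**Figure D4:**
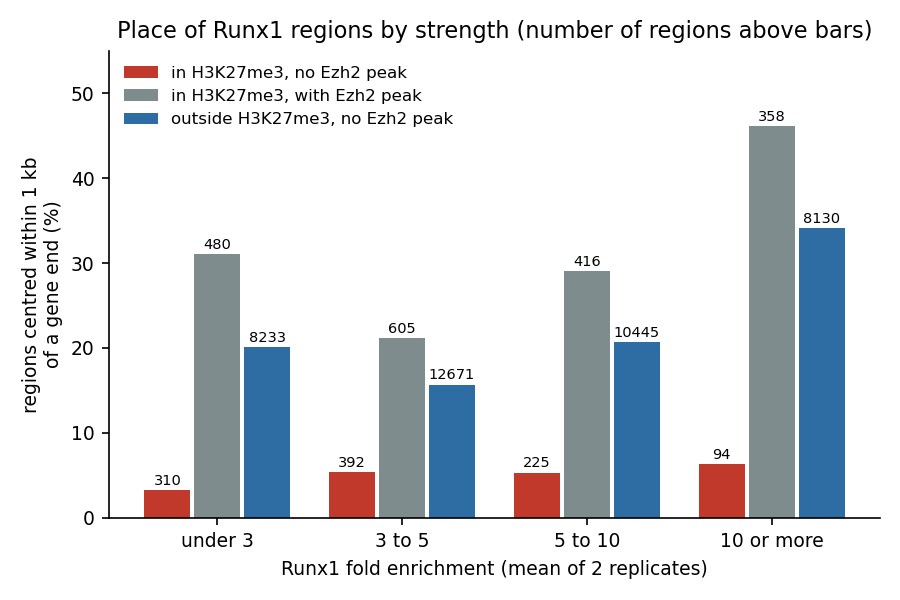
Share of Runx1 regions centred within 1 kb of a gene end (vertical, %) in 4 ranges of Runx1 fold (horizontal, mean of 2 replicates), for the 3 classes, with the number of regions above each bar. The red bars, regions in H3K27me3 without Ezh2, run from 3.23% to 6.38% and are the lowest in each range.

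Members were also less often inside genes, at 45.8% against 56.2% with Ezh2 and 59.8% outside both. They lay a median of 14.0 kb from the nearest other Runx1 region, against 11.9 kb with Ezh2, 12.6 kb for all marked Runx1 regions and 5.03 kb outside both. By chromosome, they made up 1.61% to 2.95% of the Runx1 regions of each autosome. On chromosome X they were 4 of 758 (0.528%), where 16 Runx1 regions were in the mark at all, and on Y 0 of 25.

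At least 1 member touched an end window of 58 protein-coding genes, 0.265% of 21887, and 419 genes (1.91%) had one inside or at an end. Of the 58 genes, 40 (69.0%) had an Ezh2 peak elsewhere in an end window, against 17.8% of the 9864 other genes with a Runx1 region at an end. Members lie in the mark by the rule, whereas the Runx1 regions of the other genes did not have to. These shares are therefore not like for like and describe the choice. The strongest of the 58 after Fam221a and Plekhg2 were Best3, a chloride channel gene (24.8 and 24.2), and Tuft1 (23.8 and 22.1). Ttc38 followed with a mean of 14.7 ± 0.435 (SD, n = 2). All 5 were above the members' upper quartiles, 5.12 in replicate 1 and 6.35 in replicate 2. The number of such genes was 93 or 125 without Runx1 replicate 1 or 2, 124 without Ezh2 replicate 1 and 87 without H3K27me3 replicate 2.

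Several of the 58 are genes of immune cells or of immune defence. Cxcl9, a chemokine that attracts T cells, had Runx1 folds of 8.33 and 7.57. Ifi204, an interferon-induced gene, had 7.02 and 8.78, and Lbp, which encodes a lipopolysaccharide-binding protein, had 8.27 and 5.80. At Cd44, the hyaluronan receptor of progenitors and activated lymphocytes, the folds were 6.36 and 6.43, and the nearest Ezh2 peak was 38098 bp away. Anpep, which encodes the myeloid surface enzyme CD13, had 3.30 and 3.75. At none of these genes did an H3K27me3 peak touching the member have a q-value of at most 0.01. Keratin-associated protein genes were there too, Krtap28-13, Krtap5-3 and Krtap5-4. Krtap and Ifi genes belong to families of near-identical copies, so reads could be shared among them and these calls are uncertain. These genes were picked from the 58 after their values were seen, and no theme was tested.

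Genes of 16 lists for blood lineages and other tissues were then counted. Of 611 listed genes found in the table, 14 had a member, 4 of them at an end. Hox genes (39), stem and progenitor regulators (37), B lymphoid genes (29), myeloid genes (36), mast cell, basophil and eosinophil genes (25), Polycomb and chromatin regulators (43) and RUNX and core-binding factor genes (10) had 0. With 1.91% of all coding genes holding a member, these counts are too small to set any list apart.

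Of 40 T lymphoid genes 2 had a member. Cd3e, a signalling chain of the T cell receptor complex, had one at an end with Runx1 folds of 3.00 and 3.94 and mark folds of 2.41 and 1.93. It sat in a 23799-bp H3K27me3 region holding 37 Ezh2 peaks, 316 bp from the nearest. Il2rb, a chain of the interleukin 2 and 15 receptors, had one inside, with Runx1 folds of 2.73 and 3.03. Gp9, a subunit of the platelet receptor for von Willebrand factor, had the only member among 35 erythroid and megakaryocytic genes. Its folds were 3.26 and 3.45, and it lay 43312 bp from Ezh2 and touched a mark region of 443 bp by 57 bp. The receptor gene Lifr, alone among 48 cytokine receptor and RAS signalling genes, held one with 4.66 and 6.37.

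The remaining list genes belong to other tissues. Sox17, an endoderm and endothelial transcription factor, had a member at an end (2.62 and 3.84), alone among 104 non-blood developmental factors. Among 48 genes of secreted developmental signals, Fgf3 had one at an end (4.37 and 5.09) and Wnt7b one inside with 11.7 and 12.7. Of 30 extracellular matrix and adhesion genes, Itga9, Col4a2 and Col18a1 held members. Of 40 neuronal genes Rbfox3 and Gria2 did, of 20 cell cycle inhibitors and tumour suppressors Trp73 did, and of 31 liver, gut and muscle genes Mb did. Their Runx1 folds lay between 2.58 and 13.3 as means of replicates. Wnt7b and Itga9 alone among the 14 passed a fold of 10 in both replicates.

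Genes that held 4 members each were Atp8a2, Dlgap4, Lgr6, Wnk2 and Zfp536, which are 112.3 to 456.0 kb long. A long gene has more room for members.

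Members touched 42 promoters of the table. They belonged to 41 genes, 24 of the promoters to coding ones, and the table has a promoter for 79.9% of the coding genes used. Their median number of CpG dinucleotides in 300 bases was 7.5, against 26 in the 519 promoters touched by marked regions with Ezh2, 23 in the 8903 touched by regions outside both, and 7 in all 32851 promoters. They thus resembled promoters at large in CpG content, while the other classes were rich in CpG. The classes also differed in their mix of coding and noncoding genes. Coding genes had 24 of the 42 promoters, 439 of the 519 with Ezh2, 7746 of the 8903 outside both and 21263 of all 32851. The part of this mix in the CpG and motif shares was not tested.

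The RUNX core TGTGGT, searched on both strands, was in 19 of the 42 (45.2%), against 12.3% and 14.1% of the promoters in the other classes and 16.8% of all. With TGCGGT included, the shares were 52.4%, 24.9%, 23.9% and 22.4%. Among promoters with 10 or more CpG, 7 of 17 in the members' set (41.2%) held TGTGGT, against 8.82%, 11.1% and 10.7% of all. Among those with fewer, it was 12 of 25 (48.0%), against 42.6%, 35.4% and 21.4%, a smaller gap. Some of these promoters overlap and share a Runx1 region and a motif. Counted once per Runx1 region, a choice made after seeing the data, TGTGGT was in a touched promoter of 17 of 40 members (42.5%), 14.8% of 419 regions with Ezh2 and 16.6% of 6765 outside both. With 10 or more CpG these shares were 5 of 15 (33.3%), 10.8% and 13.0%, and with fewer they were 12 of 25 (48.0%), 44.0% and 36.4%. Leaving out each peak list in turn gave 33.3% to 47.2% for the members' promoters.

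The core lay near the summits in a minority of members. Only regions with the summits of both replicates inside a promoter, at least 50 bp from its ends, were counted. TGTGGT was within 50 bp of both in 6 of 19 members (31.6%), in 7 of 227 marked regions with Ezh2 (3.08%) and in 220 of 3551 regions outside both (6.20%). These shares were not split by CpG content. Promoters with 10 or more CpG made up 40.5% of the members' promoters, 89.6% of those with Ezh2 and 87.7% of those outside both. The ETS core CCGGAA was in 3 of the members' 42 promoters (7.14%), 17.1% of those with Ezh2, 34.2% of those outside both and 14.9% of all. For the GATA core AGATAA the shares were 11.9% (5 of 42), 4.43%, 5.71% and 11.2%. For the E boxes CAGCTG and CAGATG they were 40.5% (17 of 42), 24.7%, 22.4% and 30.6%. The shares of these other cores were not split by CpG content either, and the ETS core itself contains a CpG. Motifs were counted separately whether or not matches overlapped, and a match is a description of the letters, not a bound site.

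**Figure D5:**
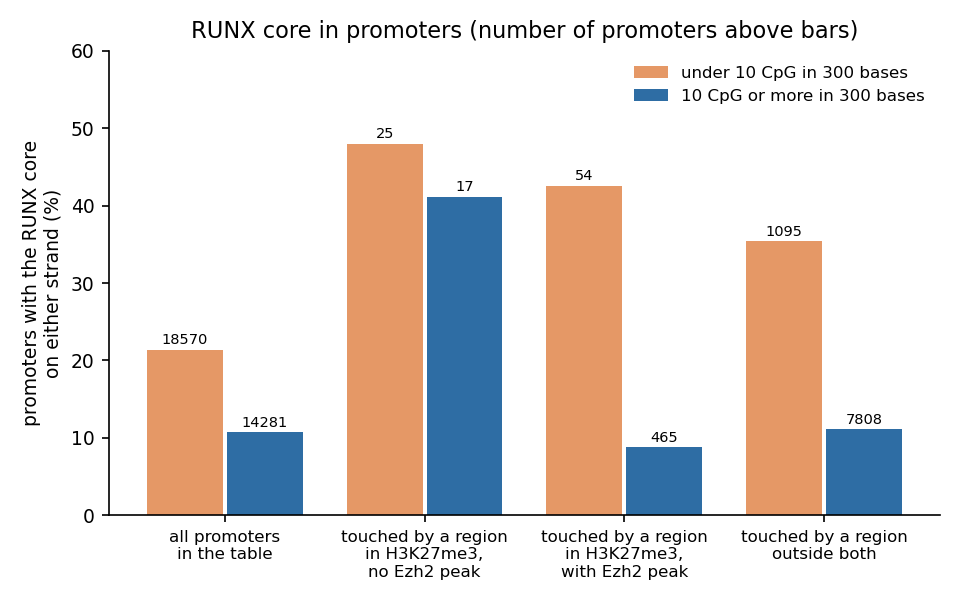
Share of 300-base promoters with the RUNX core TGTGGT on either strand (vertical, %), among all promoters of the table and those touched by 3 classes of Runx1 region, split at 10 CpG, with the number of promoters above each bar. In the promoters with 10 or more CpG, the bar for members reaches 41.2% and the others stay at or below 11.1%; it rests on 17 promoters of 15 Runx1 regions.

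At the edges of the rule the distances were a few bases. The 5 members with the least overlap shared 1 to 6 bp with the mark and had median Runx1 folds of 3.11 and 3.46, and the 5 unmarked regions nearest to it lay 0 to 6 bp away with 4.37 and 5.53. The 5 members nearest to Ezh2 were 3 to 7 bp away with medians of 3.61 and 3.35, and the 5 marked regions touching Ezh2 least did so by 1 to 7 bp with 3.68 and 6.80. Of the 1021 members, 36 shared at most 50 bp with the mark and 45 lay within 50 bp of an Ezh2 peak.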

How the data were processed

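The members and gene lists were chosen with earlier results of these data known. The submitters' processing notes name Bowtie2 2.2.1, MACS2 2.0.10, Picard, SAMtools and mm10, without the role of each. The deposited lists, 1 per antibody library, give each peak a fold enrichment (a linear ratio), a p-value and a q-value on the −log10 scale, and the deposited score was not used. Peaks were deposited down to p near 0.05. Depth is unknown, as no source used here gives read totals. Ezh2 and Runx1 peaks are narrow with summits and H3K27me3 peaks broad, so their folds are not on 1 scale.

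Lists were merged and overlapped (minimum 1 bp) with pandas 2.3.3 and numpy 2.4.6 in Python 3.11.15, by code tested on simulated intervals. A region's fold is that of its highest peak in a replicate. Genes, promoters and microRNAs are RefSeq's (GRCm38.p6). No genome was used, so exons, introns and sequences outside promoters are not given. Named regions are the 10 highest for Runx1, the 10 highest for H3K27me3 among those touched by both its replicates, those significant in every replicate, those of the H3K27me3 regions with most members and of the 5 widest, the 5 farthest from Ezh2, and up to 4 genes per list. Other choices of threshold, overlap and window, and leaving out each peak list, were tried as alternatives. Some named regions are not reported here.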

Additional observations from a re-analysis of the deposited data

How the results depend on the processing

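Depth is unknown, and no value has a test over cultures. The number of members depended on the calls. It was 433 with a Runx1 q of at most 1e-05, 100 and 26 with a mark q of at most 0.05 and 0.01, 521 when a peak of each H3K27me3 replicate had to touch the Runx1 region, 1630 when only Ezh2 regions with both replicates counted, 500 with no Ezh2 peak within 1 kb, 1730 when only Ezh2 peaks with a q of at most 0.01 counted, and 702 to 2800 with a peak list left out. In that order the share of marked Runx1 regions that were members was 29.3%, 14.5%, 8.41%, 27.7%, 56.6%, 17.4% and 60.1%, and 32.8% to 51.7% with a list left out.

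The share at gene ends moved beyond its 95% interval to 6.47% (strict Runx1), 2.00% and 0% (mark q of at most 0.05 and 0.01, the latter 0 of 26) and 6.81% (Ezh2 regions with both replicates), with 3.92% to 7.12% without a list. That interval is binomial over regions, which share their libraries and are not replicates. It served only to label a change and measures no spread between cultures. The share inside genes moved to 50.0% and 42.3% under the mark limits, with 43.2% to 49.1% without a list. The median Runx1 fold was 4.58 and 6.28 with a Runx1 q of at most 0.01 and 1e-05, 3.28 and 3.05 under the mark limits, and 2.45 to 3.88 without a list. The median mark fold was 2.52 and 2.41 under the mark limits and 2.04 to 2.16 without a list. The share of members whose H3K27me3 region held no Ezh2 peak was 23.0% and 46.2% under the mark limits, 37.8% with each H3K27me3 replicate touching, 52.0% with Ezh2 regions of both replicates, 58.2% without Ezh2 within 1 kb, 56.1% with Ezh2 q of at most 0.01, and 32.6% to 58.5% without a list. Genes with a member at an end numbered 211 with 5-kb windows, 36 with transcription starts only and 43 to 125 without a list. Runx1 replicate 2 gave the highest count of members and of such genes when left out, and H3K27me3 replicate 1 the lowest. The cause was not tested. No paired analysis was possible because no model was fitted: lists of different antibodies were overlapped, and no group was tested against another.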
